A study of Mus musculus with 2 samples.

Results

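The cells described here are epithelial cells of mouse duodenal crypts that carried much messenger RNA for the lectins Reg3b and Reg3g and little for the products of other mature lineages. They were chosen by a rule on measured UMIs (unique molecular identifiers, which count captured RNA molecules). A kept cell had at least 500 genes and at most 25% of its UMIs from mitochondrial genes. To be a Reg3-high cell it also needed at least 0.4% of its UMIs in Reg3b and Reg3g together, under 0.2% in Apoa1, Apoa4 and Apoc3, under 0.5% in Clca1, Zg16 and Fcgbp, under 2% in Lyz1 and Defa24, fewer than 5 UMIs of Chga and Chgb, and no UMI of Ptprc. The rule selected 758 of 7784 kept cells, or 9.74%, out of 12756 deposited barcodes.

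The study profiled crypts of wild-type mice from an NT and an ES group, abbreviations that are not expanded in the labels, and its title places them in work on chronic stress and stem cell ageing. Each group was 1 library made from 5 pooled animals, whose age, sex and strain are not given in the labels. Crypts were loosened with 5 mM EDTA for 30 min and broken up with TrypLE for 5 min, with 70 and 40 µm meshes between the steps. The barcodes end in 1 or 2, and no label ties these numbers to NT or ES, so the libraries are called library 1 and library 2 and no direction between the treatments is given. With 1 library a group there is no replicate and no test. Every interval below is a 95% interval that covers counting error only, and every ratio between libraries is that of library 2 to library 1.

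Reg3b and Reg3g are secreted C-type lectins of the small intestinal epithelium. Reg3g binds the peptidoglycan of Gram-positive bacteria and helps to keep them away from the mucosal surface. Both genes are known to be induced in epithelial cells by bacterial signals and by interleukin 22, which acts through STAT3, and they are made by enterocytes and Paneth cells. Enterocytes arise from dividing cells of the crypt and gain brush border enzymes, nutrient transporters and, further along the villus, the apolipoproteins of chylomicrons as they mature.

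The libraries held 6310 and 6446 barcodes with 54316199 and 54877667 UMIs. Reg3-high cells had a median of 14350.5 and 14914.5 UMIs, of 3941 and 4134 genes, and of 12.1% and 10.6% mitochondrial UMIs in libraries 1 and 2, so their depth was close. Messenger RNA that floats free in the suspension adds UMIs to every barcode, and its level was read from lymphocytes, kept cells with Ptprc, at least 2 UMIs of the Cd3 genes and no Epcam (146 and 113 cells, median 2326 and 3046 UMIs). Reg3b and Reg3g were 0.0201% and 0.0409% of the UMIs of the lymphocytes, against 1.15% and 1.05% of those of the Reg3-high cells. The libraries shared 40 barcode sequences. Only 3 Reg3-high cells carried one, and no such sequence belonged to Reg3-high cells of both libraries.

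Reg3-high cells were 7.84% of the kept cells of library 1 (318 of 4057, Clopper-Pearson interval 7.03 to 8.71) and 11.8% of those of library 2 (440 of 3727, 10.8 to 12.9). Of the kept cells, 456 and 688 passed the Reg3 threshold, and the limits on apolipoproteins took out 101 and 165 of these. The remaining limits took out fewer. The Reg3 share of the selected cells ran from 0.402% to 5.63% with a median of 0.857% in library 1, and from 0.402% to 5.33% with a median of 0.825% in library 2. These values chose the cells and are given as a description only.

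**Figure D1:**
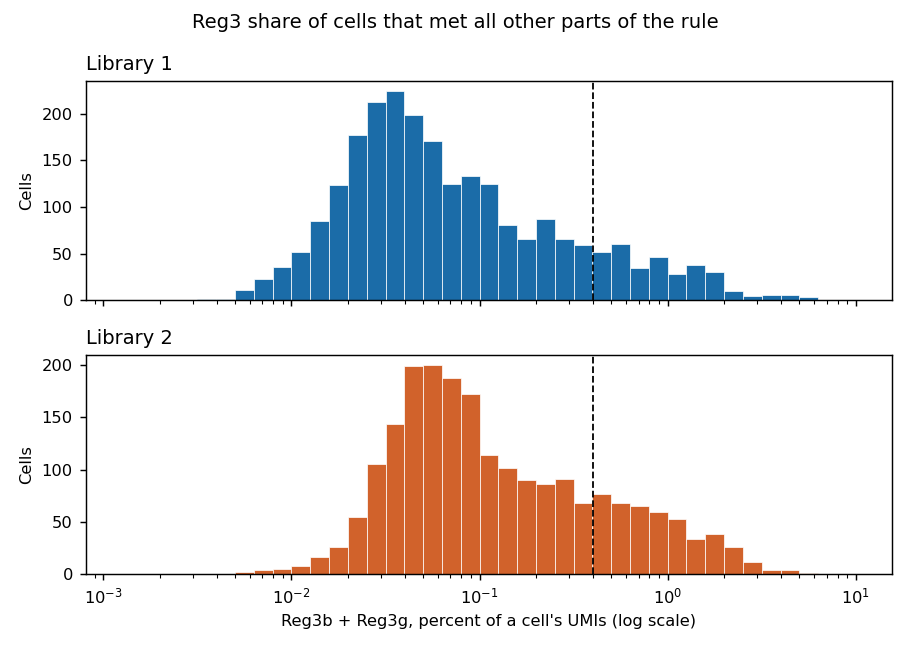
Number of cells (y axis) by the percent of a cell's UMIs in Reg3b and Reg3g (x axis, log scale), for kept cells that met every other part of the rule, library 1 above and library 2 below, cells without a Reg3 UMI left out. The dashed line is the 0.4% threshold. It crosses a continuous right flank with no gap, and 318 and 440 cells lie to its right.

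The threshold divides a continuous range. Just inside it, from 0.4% to 0.45%, lay 29 and 43 cells, and just outside it, from 0.35% to 0.4%, lay 33 and 28. Il18, a cytokine of the interleukin 1 family that epithelial cells hold in reserve, was at 219 CPM just inside and 160 just outside in library 1, and at 133 and 88.7 in library 2. CPM here are the UMIs of a gene summed over the cells of a set, per 1000000 UMIs of those cells. Mki67, a protein of dividing cells, was at 163 CPM inside and 361 outside in library 1, and at 78.7 and 268 in library 2. The brush border sugar hydrolase Sis was at 1075 and 1537 CPM in library 1 and at 1252 and 926 in library 2, so for Sis the sides of the threshold had no common order. Pigr, the receptor that carries IgA across the epithelium, was nearly level across it, at 8623 and 8762 CPM in library 1 and at 10473 and 11159 in library 2.

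The label of enterocytes was checked against marker lists. The summed level of 10 enterocyte markers was 7002 and 6447 CPM in the Reg3-high cells of libraries 1 and 2, against 227 and 414 in lymphocytes and 3284 and 4378 in all other kept cells. After random thinning of cells to 2000 UMIs, possible for 271 and 390 Reg3-high cells, at least 3 of these 10 markers were seen in 90.04% and 93.1% of them, against 37.4% and 45.9% of other kept cells. All 10 markers were detected. Stem cell markers summed to 395 and 373 CPM, against 3711 and 3285 in other kept cells. Markers of B cells, myeloid cells, stroma and red cells summed to at most 12.4 CPM, and Cd79a, Jchain, Lyz2, Csf1r, Adgre1, C1qa, Col1a1, Col3a1, Dcn, Hba-a1 and Hbb-bs had no UMI. The Gp2 gene of M cells had none either.

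Markers of secretory cells were also present. Goblet markers summed to 808 and 1534 CPM in Reg3-high cells and to 612 and 1248 in lymphocytes, against 8225 and 13781 in other kept cells. Paneth markers summed to 2511 and 3535 CPM, against 4755 and 3182 in lymphocytes. Enteroendocrine markers were at 80.9 and 139 CPM, and at 53.9 and 145 in lymphocytes. The goblet gene Muc2 was seen in 9.59% and 24.9% of thinned Reg3-high cells and in 5.77% and 9.68% of thinned lymphocytes. Unthinned, the shares were 42.8% and 72.7% against 7.53% and 25.7%. Thinned, Muc2 was above the lymphocytes in both libraries, but in library 1 the intervals overlapped (6.36 to 13.7 and 2.15 to 12.1). Lymphocytes had far fewer UMIs, so their shares need not equal those of free RNA in the deeper Reg3-high cells. Both the goblet and the enteroendocrine sums were higher in library 2 in lymphocytes as well. The rule limits some genes of these 3 lists, so their sums are partly fixed by it. The enterocyte markers, which the rule did not use, were higher than in other kept cells, but those still include the lineages the rule took out. At least 3 markers were also seen in 92.8% and 92.3% of thinned cells with Alpi, a set defined below. The median thinned Reg3-high cell had 5 markers in both libraries, against 8 in cells with many apolipoprotein UMIs. The markers thus place these cells among absorptive cells and do not tell them from other absorptive sets.

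The 2 lectins did not contribute equally in the libraries. In libraries 1 and 2, Reg3b had 6230 and 4258 CPM, and Reg3g 5315 and 6287. Reg3b thus made up 54.0% of the pair's UMIs in library 1 and 40.4% in library 2. By single cells, Reg3b outnumbered Reg3g in 153 of 318 cells of library 1 (48.1%, 42.5 to 53.8) and in 101 of 440 of library 2 (23%, 19.1 to 27.2). The lower Reg3b share of library 2 was not a feature of these cells alone. It was 67.1% and 53.1% in cells with many apolipoprotein UMIs, 39.1% and 24.6% in cells with Alpi, 40.7% and 26.4% in cells with Gsdmc transcripts, and 55.7% and 40.5% in barcodes with fewer than 500 genes. The rule fixes the sum of the pair and not its split, but the genes are related in sequence, and the labels do not state how reads that match both were counted.

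Reg3b and Reg3g lie in 1 cluster of Reg genes on mouse chromosome 6, at chr6:78370657-78373466 on the plus strand and chr6:78466269-78468872 on the minus strand (GENCODE M21, GRCm38). Their promoters are shown because the pair was chosen together and yet divided differently. The letters are from RefSeq, build GRCm38.p6, and cover the part of the 250 bases before the RefSeq start that holds no annotated exon, at chr6:78370707-78370860 (plus strand) and chr6:78468875-78469124 (minus strand). Capitals mark a match to the STAT element TTCNNNGAA, which reads the same on both strands.
Reg3b: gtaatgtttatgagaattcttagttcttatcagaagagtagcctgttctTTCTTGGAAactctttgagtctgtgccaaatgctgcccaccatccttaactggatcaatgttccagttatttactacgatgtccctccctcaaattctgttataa
Reg3g: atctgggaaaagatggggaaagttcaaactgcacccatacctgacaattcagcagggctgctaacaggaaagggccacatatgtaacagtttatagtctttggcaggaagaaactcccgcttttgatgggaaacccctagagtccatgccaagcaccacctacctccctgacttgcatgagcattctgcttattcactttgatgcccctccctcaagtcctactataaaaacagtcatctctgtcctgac
The 154 bases shown for Reg3b held 1 match, which began 129 bases before the RefSeq start, and the 250 bases shown for Reg3g held none. GENCODE starts Reg3b further upstream, so by that annotation the Reg3b stretch lies inside the gene, outside its exons. Among 32851 RefSeq promoters of 300 bases (250 before and 50 after the start), a longer window than those shown, 8.30% held such a match. By gene, it was in 2 of the 6 measured REG family genes and in 9.55% of all genes. Over the 250 bases before their starts the pair had identical letters in 177 of 257 alignment columns, or 68.9%. A match describes letters and does not show that a factor binds there.

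Among genes the rule did not use, Pigr had the highest CPM in the Reg3-high cells, at 8989 in library 1 and 10469 in library 2. CPM counts molecules and was not scaled by gene length. Lypd8, a secreted protein that keeps flagellated bacteria from the epithelium, followed with 4772 and 6500 CPM. Dmbt1, a scavenger receptor that binds bacteria, was at 1952 and 2765 CPM. Plac8 was at 3843 and 4311 CPM, the galectin Lgals4 at 4388 and 4345, and the keratin Krt19 at 2778 and 2997. The other 9 of the 15 leading genes were Eef1a1, Actb, Fth1, Txn1, Atp5g3 and the ribosomal protein genes Rps26, Rps12, Rplp1 and Rpl17. Pigr was found in every thinned cell of both libraries, and Lypd8 in 99.3% and 99.7%, but free RNA reached 61.5% and 59.1% of thinned lymphocytes for Pigr and 31.7% and 57.0% for Lypd8.

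Of the 4 genes proposed as markers of these cells, Il18 and Ccl20 were not in the rule. Il18 (chr9:50554827-50581840, plus strand) had 207 CPM in library 1 and 171 CPM in library 2, with a ratio of 0.826 (0.757 to 0.902). Ccl20 (chr1:83116766-83119167, plus strand), the chemokine that draws cells bearing Ccr6 to mucosal lymphoid tissue, was at 40.2 and 135 CPM, a ratio of 3.37 (2.87 to 3.97). In lymphocytes each had 1 UMI in each library, which is 2.84 and 2.69 CPM. Thinned to 2000 UMIs, 29.2% and 24.4% of Reg3-high cells had an Il18 UMI, against 0 of 104 and 1.08% of lymphocytes. Ccl20 was seen in 7.75% and 16.7% of thinned Reg3-high cells, and in 21.7% and 38.0% unthinned. A few cells held most of the Ccl20. The 10% of cells with the most carried 78.6% and 69.8% of its UMIs, against 41.4% and 40.9% for Il18, and the median cell had no Ccl20. Ccl20 is also known from the epithelium over lymphoid follicles. The list of 6 M cell and follicle markers, which holds Ccl20, summed to 55.0 and 159 CPM, against 68.1 and 121 in lymphocytes. Gp2 was at 0 in Reg3-high cells. Ccl20 itself made up most of the sum in Reg3-high cells and little of it in lymphocytes. The other markers of the list were lower together in Reg3-high cells than in lymphocytes, but lymphocytes are no reference for follicle epithelium. Ccl9, also of this list, was higher in library 2, as Ccl20 was. A part of follicle epithelium in the Ccl20 values was not tested.

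For comparison, 3 other sets of absorptive cells were formed. All met the limits on goblet, Paneth, enteroendocrine and Ptprc genes. Apo-high cells (162 and 226) had at least 0.2% of UMIs in Apoa1, Apoa4 and Apoc3. Gsdmc cells (110 and 156) were under both the Reg3 and the apolipoprotein thresholds and had at least 0.05% in Gsdmc2, Gsdmc3 and Gsdmc4. Alpi cells (406 and 243) were under all of these and had at least 0.02% and 2 UMIs of Alpi, the alkaline phosphatase of the brush border. Because the sets were selected on values of the same cells, no difference between them was tested. Of the Apo-high cells, 60.5% and 69.0% also passed the Reg3 threshold. Reg3b and Reg3g made up 1.29% and 1.13% of their UMIs, so a high Reg3 level was not particular to the Reg3-high cells. A gene is called apart when its CPM ratio was at least 1.5 in the same direction in both libraries with intervals that exclude 1, over genes with at least 100 UMIs. For members of the 33 gene lists the minimum was 20 UMIs.

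**Figure D2:**
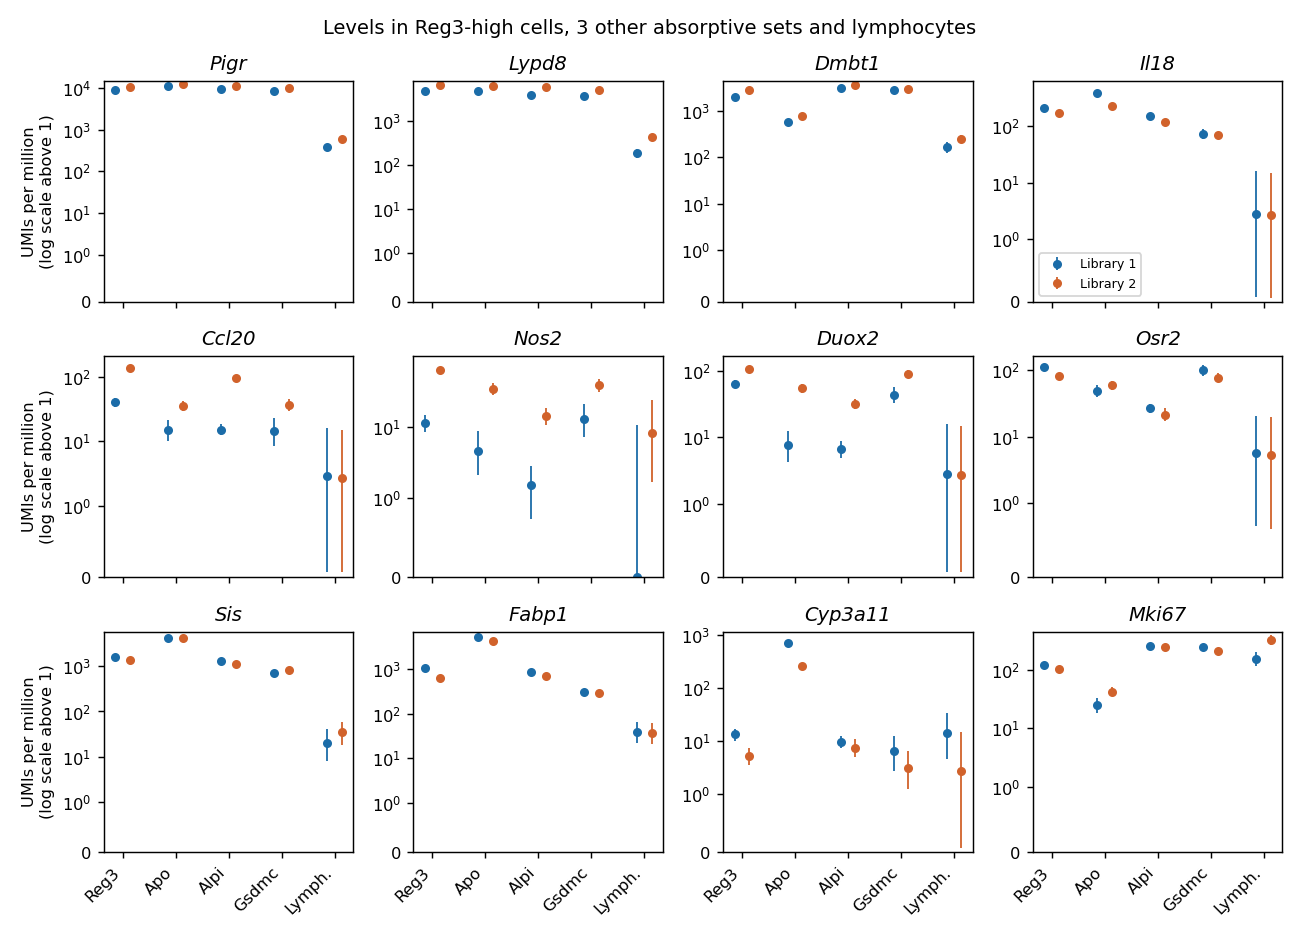
CPM of 12 genes (y axes, log scale above 1) in Reg3-high cells, Apo-high cells, Alpi cells, Gsdmc cells and lymphocytes (x axis), library 1 in blue and library 2 in orange. Points are summed levels and bars their exact Poisson 95% intervals. Sis and Fabp1 in Reg3-high cells lie under the Apo-high cells and over the Gsdmc cells in both libraries, and Pigr and Lypd8 in the Reg3-high cells lie within 1.5-fold of each of the other 3 epithelial sets.

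Against Apo-high cells, Reg3-high cells carried less of the absorptive programme and more of genes tied to growth. Of 8685 genes, 1446 (16.6%) were higher in Reg3-high cells and 615 (7.08%) lower, and the median log2 ratio over all of them was 0.25 and 0.23. Every one of 19 brush border hydrolase genes measured was lower, with a median log2 ratio of -1.40 and -1.63, where 6.35% of all genes from 20 UMIs were lower and 14% higher. Lct, the lactase, was at 530 CPM in Apo-high and 60.1 in Reg3-high cells of library 1, and at 594 and 44.1 in library 2. Sis was at 4133 and 1616 CPM in the Apo-high and Reg3-high cells of library 1, and at 4177 and 1347 in library 2. Of 25 sugar, peptide and amino acid transporters 18 were lower and 2 higher. The glucose carrier Slc5a1 was at 1575 and 430 CPM in library 1 and 1865 and 472 in library 2. Of 24 genes of lipid absorption 18 were lower and none higher. Fabp1, a fatty acid binding protein, was at 5156 and 1032 CPM in library 1 and 4194 and 631 in library 2. Apoa1, Apoa4 and Apoc3, which the rule used, are not counted in that list, but a limit on them also limits what goes with them.

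The 8 genes ranked lowest against Apo-high cells included 3 cytochromes and several apical proteins. Cyp3a11, a drug-metabolising cytochrome, was at 715 CPM in Apo-high and 13.3 in Reg3-high cells of library 1, and at 265 and 5.16 in library 2, ratios of 0.0186 (0.0141 to 0.0240) and 0.0195 (0.0134 to 0.0274). Cyp2b10, Cyp1a1 and Sectm1b had ratios of 0.0165 to 0.0441. Enpp7, the brush border sphingomyelinase, was at 51.7 and 0.663 CPM in library 1 and 88.2 and 1.67 in library 2. Pdzk1, a scaffold of apical transporters, was at 26.1 and 21.5 CPM in Apo-high cells and had no UMI in any Reg3-high cell, which makes it at least 39.4-fold and 47.2-fold lower against a floor of 3 counts per library. Aqp3 and Slc5a12 had no UMI in library 1, at least 28.8-fold and 27.3-fold lower, and 4 and 2 UMIs in library 2. Of 33 genes of xenobiotic metabolism 24 were lower, of 20 microvillus genes 12 lower and 2 higher, and of 41 interferon-stimulated genes 16 lower and none higher.

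Replication and mitosis genes were higher in Reg3-high than in Apo-high cells for 23 of 29, with a median log2 ratio of 1.29 and 1.17. Mki67 was at 24.6 and 118 CPM in library 1 and 42.3 and 102 in library 2. All 24 cytosolic ribosomal protein genes of the list were higher, by a median log2 ratio of 1.13 and 1.12, and 8 of 20 cholesterol synthesis genes were. Ccnd2 and Ccnd1, cyclins of the entry into the cell cycle, had ratios of 7.27 and 3.69 and of 6.03 and 4.32. Fam107b was at 18.6 and 108 CPM in library 1 and 15.6 and 98.3 in library 2. Dmbt1 was at 582 and 1952 CPM in library 1 and 769 and 2765 in library 2, ratios of 3.35 and 3.60. L1cam, Lbr, Lipg, Rbp7, Apobec3, Clca3b, Npm3 and the epithelial transcription factor Ehf were the other leading genes, with ratios of 3.21 to 9.51. Il18 was lower, at 0.535 and 0.751 times the Apo-high level, and the second value did not reach the 1.5-fold limit. Ccl20 was higher, with ratios of 2.67 and 3.82. Of 4 REG family genes outside the rule, 2 were lower than in Apo-high cells and none higher. Their median log2 ratio was -1.28 and -0.61. Reg3a was seen in 38.4% and 29.0% of thinned Reg3-high cells, against 69.0% and 50.7% of thinned Apo-high cells.

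Few genes set Reg3-high cells apart from Alpi cells, whose median depth was 14878 and 14850 UMIs. Of 9273 genes, 54 (0.582%) were higher in Reg3-high cells and 189 (2.04%) lower. Nos2, the inducible nitric oxide synthase, led the higher genes with 1.54 and 11.3 CPM in the Alpi and Reg3-high cells of library 1 and 13.9 and 62.9 in library 2, ratios of 7.30 (3.67 to 16.1) and 4.52 (3.39 to 6.11). Duox2, which makes hydrogen peroxide at the apical surface, was at 6.64 and 64.8 CPM in library 1 and 32.3 and 109 in library 2. Of 18 oxidant and antioxidant genes, Nos2 and Duox2 were the ones apart. The transcription factor gene Osr2 was at 26.7 and 111 CPM in library 1 and 21.4 and 80.5 in library 2. Mgat4c, the serine protease inhibitor Spink1, the NF-kB adaptor Tifa, the tyrosine kinase Ptk6, Ceacam20, Rassf4 and Ifit1bl2 were higher by ratios of 2.13 to 5.12.

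Of the defence lists, few members were apart from the Alpi cells: 1 of 4 REG genes was higher, 1 of 30 receptor and sensing genes, 1 of 17 inflammasome and gasdermin genes, and none of 15 other antimicrobial genes or of 19 cytokines, with none lower in any of these lists. Reg3a, a further lectin of the family, was at 131 and 309 CPM in library 1 and 107 and 228 in library 2. The inflammatory caspase Casp4 had ratios of 1.62 and 1.56, the NF-kB subunit Relb 1.54 and 1.73, and Krt20, a keratin of differentiated cells, 2.12 and 1.55. Of 17 brush border hydrolases 4 were higher, Mep1b, Naaladl1, Ace and Cndp2, and none lower, where 0.56% of all genes from 20 UMIs were higher and 1.79% lower. Il18 was 1.34 and 1.44 times the Alpi level, under the limit in both libraries. Ccl20 was 2.66 and 1.39 times that level. No member of the interferon-stimulated list was apart among 42, and none of the lipid absorption list among 22. At these shares lists of such size would hold few genes apart or none, so low counts here do not show that their genes were alike.

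Genes of dividing cells were lower in Reg3-high than in Alpi cells. Of 30 replication and mitosis genes 21 were lower and none higher, with a median log2 ratio of -1.07 and -1.01. Mki67 was at 257 and 118 CPM in library 1 and 242 and 102 in library 2, and Ube2c at 231 and 96.4 and at 203 and 86.3. The mitosis genes Anln, Nusap1 and Birc5, and Cip2a, were also among the 8 lowest. Pdx1, a transcription factor of the duodenum and pancreas, was at 21.8 and 4.20 CPM in library 1 and 21.9 and 6.06 in library 2. Foxq1 had ratios of 0.211 and 0.265, from 15 and 14 UMIs. The iron exporter Slc40a1 and the calcium binding protein S100g were lower as well, with ratios of 0.395 and 0.496 and of 0.479 and 0.331. Per cell, at least 5 UMIs of the cycle list were seen in 12.5% and 11.3% of thinned Reg3-high cells, in 27.6% and 27.4% of Alpi cells, and in 0.704% and 1.97% of Apo-high cells.

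Against Gsdmc cells, which carry transcripts of the gasdermin C genes, the order of the absorptive genes was the other way. Of 8635 genes, 150 (1.74%) were higher in Reg3-high cells and 258 (2.99%) lower. Of 15 brush border hydrolases 10 were higher and none lower, of 24 nutrient transporters 8, of 22 lipid absorption genes 7, and of 32 xenobiotic genes 12, where 1.41% of all genes from 20 UMIs were higher and 2.73% lower. The meprin Mep1b was at 125 and 401 CPM in library 1 and 221 and 507 in library 2. Reg1, another lectin of the family, was at 552 and 1746 CPM in library 1 and 296 and 1184 in library 2. Reg3a had ratios of 3.35 and 2.25, Fabp1 of 3.45 and 2.21, Gsta1 of 3.08 and 2.58, and Sult6b2 of 4.77 and 4.63. Papss2, which makes the sulphate donor of sulphotransferases, had ratios of 2.86 and 3.08, Adh6a of 2.17 and 2.09, and the sodium exchanger Slc9a3 of 2.48 and 2.17.

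Among the cytokines, 3 of 18 were higher than in Gsdmc cells, Il18 with ratios of 2.83 and 2.49, Ccl20 with 2.82 and 3.71, and Cx3cl1 with 1.77 and 1.66. The interleukin 22 receptor chain Il22ra1 was at 1.59 and 7.07 CPM in library 1 and 2.20 and 7.58 in library 2. Reg3-high cells held 32 and 50 UMIs of it. The Gsdmc cells, with 1259419 and 2272874 UMIs of all genes, held only a few. Its intervals were therefore wide (1.14 to 38.4 and 1.38 to 11.1), and the difference rests on those few UMIs. Nos2, Duox2 and Osr2, which led against the Alpi cells, were not apart here. Osr2 was at 99.3 and 111 CPM in library 1 and 77.0 and 80.5 in library 2. Replication and mitosis genes were lower for 27 of 30, with a median log2 ratio of -1.22 and -1.05, and 4 of 19 stem cell genes were lower. Pla2g4c was at 32.6 and 4.42 CPM in library 1 and 17.2 and 3.94 in library 2. Hells, Mcm3, Pclaf, Cenpe and Top2a, genes of replication and mitosis, as well as Cip2a and the Schlafen gene Slfn9, had ratios of 0.255 to 0.483.

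Within the Reg3-high cells, genes were also followed along the Reg3 share that defined them. The cells of each library were ranked by it and divided into 3 parts, the lowest holding 106 and 147 cells and the highest 106 and 146. Their median depth was 13665.5 and 14371.5 UMIs in library 1 and 14596 and 14816.5 in library 2. Of 10481 genes from 20 UMIs, 10 (0.0954%) were higher, Reg3b and Reg3g among them, and 56 (0.534%) lower in the highest part in both libraries. B3galt5, a galactosyltransferase, was at 1.97 CPM in the lowest and 33.1 in the highest part of library 1, and at 1.84 and 15.8 in library 2. Mgat4c was at 23.7 and 83.4 CPM in library 1 and 25.3 and 50.3 in library 2, Ptk6 at 21.7 and 44.8 and at 17.5 and 41.5, and Tifa at 17.1 and 47.6 and at 18.0 and 29.4. Spink1 was at 403 and 645 CPM in library 1 and at 418 and 636 in library 2.

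Division genes went the other way along the ranking. Of 28 replication and mitosis genes 13 were lower in the highest part and none higher, with a median log2 ratio of -1.01 and -0.70. Top2a was at 174 and 64.1 CPM in library 1 and 102 and 62.0 in library 2, and Ube2c at 144 and 55.8 and at 115 and 54.1. The ion cotransporter Slc12a2 of crypt cells was at 145 and 76.5 CPM and at 105 and 68.5. Il18 had ratios of 1.43 and 1.84 and so missed the limit in library 1. No interferon-stimulated gene was apart among 38, though at the shares of all genes few or none would be. Their median log2 ratio was -0.18 in library 1 and 0.33 in library 2. The median apolipoprotein share, bounded by the rule, was 0.0284% and 0.0452% in the lowest and highest parts of library 1, and 0.0255% and 0.0553% in library 2.

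**Figure D3:**
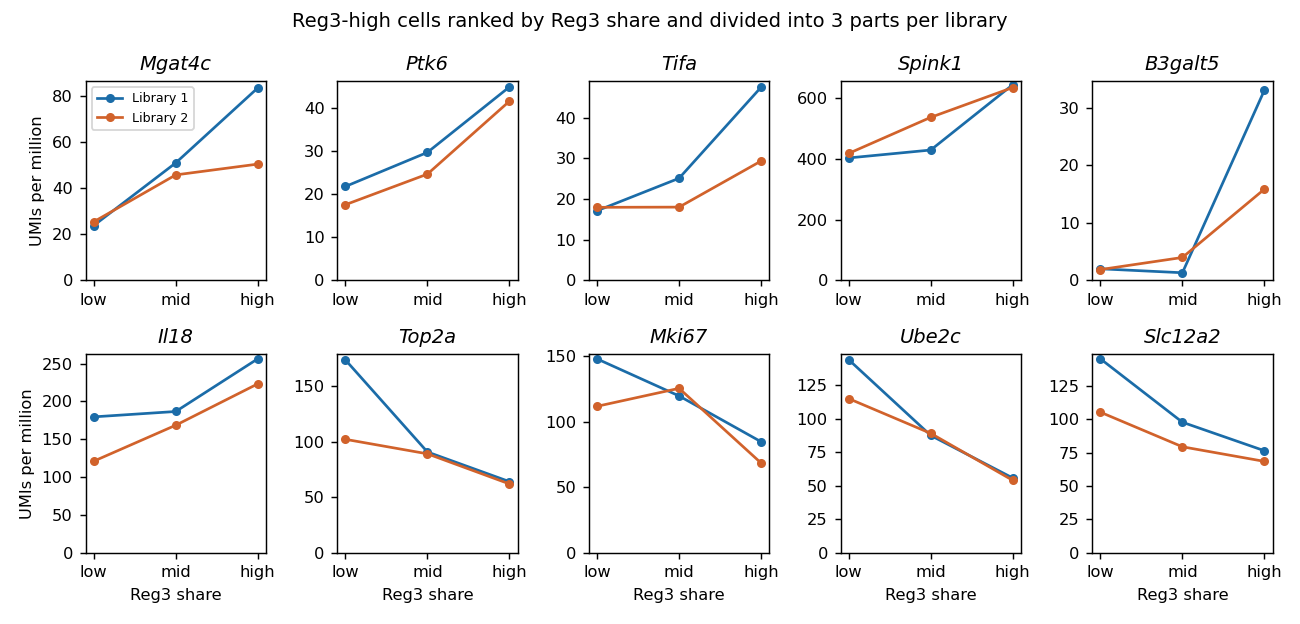
CPM of 10 genes (y axes) in Reg3-high cells ranked by their Reg3 share and divided into 3 parts per library (x axis, low to high), library 1 in blue and library 2 in orange. Points are summed levels without error bars. Mgat4c, Ptk6, Tifa, Spink1 and B3galt5 are highest in the highest part of both libraries, and Top2a, Mki67, Ube2c and Slc12a2 are lowest there.

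Between the libraries, 225 of 8035 genes (2.8%) in Reg3-high cells were apart and higher in library 2, and 79 (0.983%) lower, by the same limits on size and interval. The median log2 ratio of all genes was 0.04. With 20 UMIs as the minimum the counts were 363 (3.46%) and 162 (1.55%) of 10481. Genes induced by interferons, which block virus growth and alert neighbouring cells, led the higher side. Of 38 such genes measured, 31 were apart and higher and none lower, with a median log2 ratio of 1.52, and all 38 ratios lay over 1. Oasl2, an oligoadenylate synthetase-like protein, had 35.1 and 179 CPM in libraries 1 and 2, a ratio of 5.09 (4.31 to 6.05). Ifi44 was at 5.97 and 76.7 CPM, a ratio of 12.9 (8.73 to 19.7), and Rtp4 at 7.07 and 68.1, a ratio of 9.62 (6.72 to 14.2).

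Other members of the list moved over a wide range. Oas3 was at 2.21 and 25.2 CPM, Slfn5 at 2.43 and 25.8, Trim30a at 3.09 and 27.4, Ifit1 at 4.20 and 31.5, and Phf11d at 6.19 and 39.1. Ifit1bl1 and Oas1a had ratios of 4.51 and 4.79. Transcription factor genes of the response were higher too, with Stat2 at 29.6 and 87.2 CPM and Irf7 at 18.1 and 50.9, whereas Irf9, at 59.9 and 81.7, missed the limit with a ratio of 1.36. Lgals9, at 960 and 1436 CPM, had a ratio just under it. The median log2 ratio of the list was 1.96 in Apo-high cells, 1.99 in Alpi cells, 1.26 in Gsdmc cells and 1.79 in the other kept cells, and 1.08 in lymphocytes over 34 genes. Barcodes under 500 genes moved the same way, with Oasl2 at 39.7 and 151 CPM and Ifi44 at 5.41 and 43.5. How much of the RNA of such barcodes was free was not tested. Pigr was at 6329 and 6437 CPM in them, against 391 and 578 in lymphocytes. In lymphocytes Oasl2 had 2.84 and 16.1 CPM, under the level of Reg3-high cells of the same library.

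Promoters of 3 of these genes are shown because an interferon element was more common in the list's promoters than in promoters at large. The letters searched were TTTC, then 2 letters of any kind, then TTTC, which on the other strand reads GAAA, 2 letters of any kind, GAAA. It was found in 16 of the 29 measured genes with a RefSeq promoter (55.2%), in 13 of the 22 that were apart and higher (59.1%), and in 3.44% of all 32851 promoters, or 3.99% of 27025 genes. It was in none of 6 REG family promoters and in none of the 4 of MHC class II genes. Capitals mark the matches in the exon-free part of the 250 bases before the start, at chr19:34640744-34640870 (plus strand), chr5:120777662-120777795 (minus strand) and chr4:156200819-156201068 (minus strand), RefSeq, GRCm38.p6.
Ifit1: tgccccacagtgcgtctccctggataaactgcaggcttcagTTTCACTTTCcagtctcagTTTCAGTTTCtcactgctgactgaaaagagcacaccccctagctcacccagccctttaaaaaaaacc
Oas3: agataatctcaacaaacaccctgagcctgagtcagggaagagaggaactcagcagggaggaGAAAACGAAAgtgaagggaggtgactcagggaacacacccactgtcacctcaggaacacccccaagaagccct
Isg15: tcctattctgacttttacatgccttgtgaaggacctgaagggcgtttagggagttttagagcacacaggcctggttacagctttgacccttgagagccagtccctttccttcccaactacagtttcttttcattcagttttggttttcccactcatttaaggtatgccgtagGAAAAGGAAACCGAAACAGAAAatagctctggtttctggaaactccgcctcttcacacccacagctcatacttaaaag
Ifit1 held 2 matches that began 104 and 85 bases before the start, Oas3 held 1 at 75, and Isg15 held 3 that overlap, at 78, 72 and 66. Isg15, a ubiquitin-like protein, was at 8.62 and 28.7 CPM, a ratio of 3.32 (2.34 to 4.82). The STAT element was in 20.7% of the 29 genes, in 13.6% of the 22 that were apart and higher, and in 9.55% of all genes. The match is a property of the letters and says nothing of which factor was active.

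The summed level of the interferon-stimulated list was higher in most cells of library 2, while some of its leading genes were less evenly spread. Summed per cell, the list had a median of 1943 CPM in library 1 (quartiles 1534 and 2536) and 3792 in library 2 (2800 and 4922). In library 2, 415 of 440 cells (94.3%) lay over the median of library 1, and 15 of 318 cells of library 1 (4.72%) lay over that of library 2. The list had no UMI in 11 and 1 cells. Lgals9, whose ratio was just under the limit, made up a large part of the summed list in both libraries. In library 2, the 44 cells with the most Ifi44 carried 54.5% of its UMIs, and the median cell had none. The same number of cells carried 46.5% of the Rtp4 UMIs, again with none in the median cell. For Oasl2 that share was 41.4%, and the median cell was at 106 CPM. Unthinned, Oasl2 was seen in 68.2% of these cells, Rtp4 in 45.9% and Ifi44 in 43.4%. Thinned to 2000 UMIs, Oasl2 was seen in 6.27% and 26.4% of Reg3-high cells and in 0 of 104 and 3.23% of lymphocytes. Rtp4 was seen in 2.21% and 11% of Reg3-high cells and in 4.81% and 30.1% of lymphocytes, so for Rtp4 the lymphocytes themselves were higher.

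**Figure D4:**
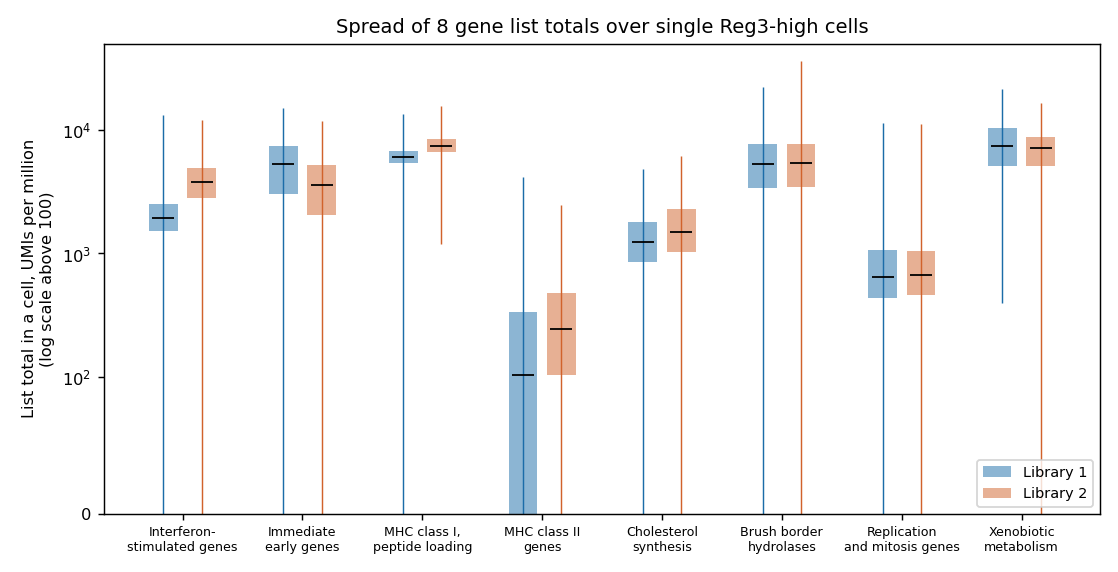
Summed CPM of 8 gene lists in single Reg3-high cells (y axis, log scale above 100), library 1 in blue and library 2 in orange. Black dashes are medians, boxes quartiles and thin lines the lowest and highest cell. The boxes of the interferon-stimulated list do not overlap between the libraries, and those of brush border hydrolases and of replication genes nearly coincide.

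Antigen presentation genes were higher in library 2 by smaller ratios. Of 24 genes of MHC class I and peptide loading 7 were apart and higher and none lower, with a median log2 ratio of 0.42. H2-K1, a classical class I chain, was at 573 and 879 CPM (1.53, 1.46 to 1.61), the peptide transporter Tap1 at 58.4 and 104 (1.78, 1.54 to 2.06) and the immunoproteasome subunits Psmb8 and Psmb9 at 135 and 205 and at 92.0 and 140. H2-D1, at 508 and 761, and B2m, at 1164 and 1574, stayed under the limit. The list's medians in the other 3 sets were 0.33, 0.45 and 0.29. Class I genes of the H2 family are near copies of each other, so how their reads were divided is uncertain.

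Of 7 MHC class II genes 4 were higher, with a median log2 ratio of 0.76. The invariant chain Cd74 was at 100 and 173 CPM (1.73, 1.55 to 1.94), H2-Aa at 5.31 and 15.9 (a ratio of 3, with 1.91 to 4.89), H2-Eb1 at 16.8 and 28.5 and H2-DMa at 15.3 and 24.1. The class II median was lower here than the 1.67 of Apo-high cells and the 2.02 of Alpi cells, and those differences were not tested. Class II RNA was also found in other barcodes, with Cd74 at 105 and 236 CPM in barcodes under 500 genes and at 19.8 and 32.3 in lymphocytes. B cell markers summed to 2.65 and 5.31 CPM in Reg3-high cells and myeloid markers to 12.4 and 9.70, with Cd79a, Lyz2, Csf1r, Adgre1 and C1qa at 0.

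Among secreted signals, 6 of 18 cytokine genes were apart and all were higher in library 2. Besides Ccl20 these were Tnf, at 3.09 and 10.0 CPM, Ccl5, at 19.5 and 29.7, Csf1, from 3 and 26 UMIs, Ccl6 and Ccl9. Ccl5 is also a product of T cells, whose markers, Ccl5 among them, summed to 72.5 and 110 CPM here and to 73157 and 60895 in lymphocytes, and their part was not tested. Nos2 was at 11.3 and 62.9 CPM, a ratio of 5.58 (4.17 to 7.62), and was found in 10.1% and 29.5% of unthinned cells. In library 1 all Nos2 UMIs lay in 32 cells. Duox2 was at 64.8 and 109 CPM (1.68, 1.46 to 1.93). In barcodes under 500 genes Nos2 was at 14.4 and 39.4 CPM. Of 30 receptors and innate sensors 5 were higher and none lower, among them Tlr2 and Nod2 with at most 21 UMIs a library. Casp4 was at 66.8 and 106 CPM, whereas Casp1, at 486 and 499, and Gsdmd, at 86.2 and 110, were not apart.

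Of the REG family, the rule bounds Reg3b and Reg3g. None of the other members measured was apart between the libraries. Reg1 was at 1746 and 1184 CPM, a ratio of 0.678, and Reg3a at 309 and 228, a ratio of 0.740, both short of the limit. Other secreted defence proteins were mixed. Ang4, a Paneth and goblet cell protein, was at 59.7 and 139 CPM, and Tff3, a goblet cell peptide, at 212 and 384. Goblet markers as a list stood at 808 and 1534 CPM in these cells and moved in the same direction in lymphocytes, and their part in these values was not tested. Lcn2 rested on 4 and 18 UMIs. The mucin Muc3 was lower, at 160 and 101 CPM.

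Markers of a regenerating epithelium were apart for 5 of 13 genes. Ly6a, which encodes the surface protein Sca-1, was at 4.20 and 23.3 CPM (5.56, 3.44 to 9.49, and 11.8 with thinned cells), from 19 UMIs in library 1, and Ly6e at 197 and 542 (2.75, 2.55 to 2.96). S100a11 was also higher, and Ccn1 and Amotl2 were lower. Ly6a and Ly6e are themselves known to respond to interferon. Of 20 cholesterol synthesis genes 6 were higher and none lower, with a median log2 ratio of 0.52. Sqle, the squalene epoxidase, was at 59.2 and 93.4 CPM. The list's medians were 0.50, 0.41 and 0.34 in the other 3 epithelial sets and -0.39 in lymphocytes.

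Immediate early genes, which cells switch on within minutes of a stimulus, were lower in library 2. Of 27 measured, 8 were apart and lower and none higher, the median log2 ratio was -0.49, and 26 of 27 ratios lay under 1. Egr1 was at 794 and 514 CPM (0.647, 0.618 to 0.679), Jun at 795 and 529, Fosb at 174 and 109, and Atf3 at 176 and 93.4 (0.530, 0.476 to 0.590). Nr4a1, Nr4a2, Csrnp1 and Ppp1r15a were the others. Fos, at 893 and 650, missed the limit with a ratio of 0.728. The list's medians were -0.30, -0.61 and -0.68 in the other sets and -0.18 in lymphocytes.

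Detoxifying enzymes were lower in library 2 for 8 of 32 genes, with none higher and a median log2 ratio of -0.20. Aldh1a1, a retinaldehyde dehydrogenase, was at 531 and 307 CPM (0.578, 0.544 to 0.613), the carboxylesterase Ces2a at 117 and 67.3, Cyp2c66 at 50.8 and 27.6, and Gsta1 at 183 and 110. Gm3776, a near copy that lies beside Gsta1 on chromosome 9, went the same way with a ratio of 0.422, and reads may have been divided between them. Fabp1 was at 1032 and 631 CPM and the amino acid carrier Slc6a20a at 162 and 97.8. Klhl24 and Sertad1 had ratios of 0.501 and 0.512. Of 18 glucocorticoid-induced genes 4 were lower, among them Sgk1 and Pdk4 with ratios of 0.446 and 0.371 from at most 40 UMIs a library, and Mt2 was higher.

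**Figure D5:**
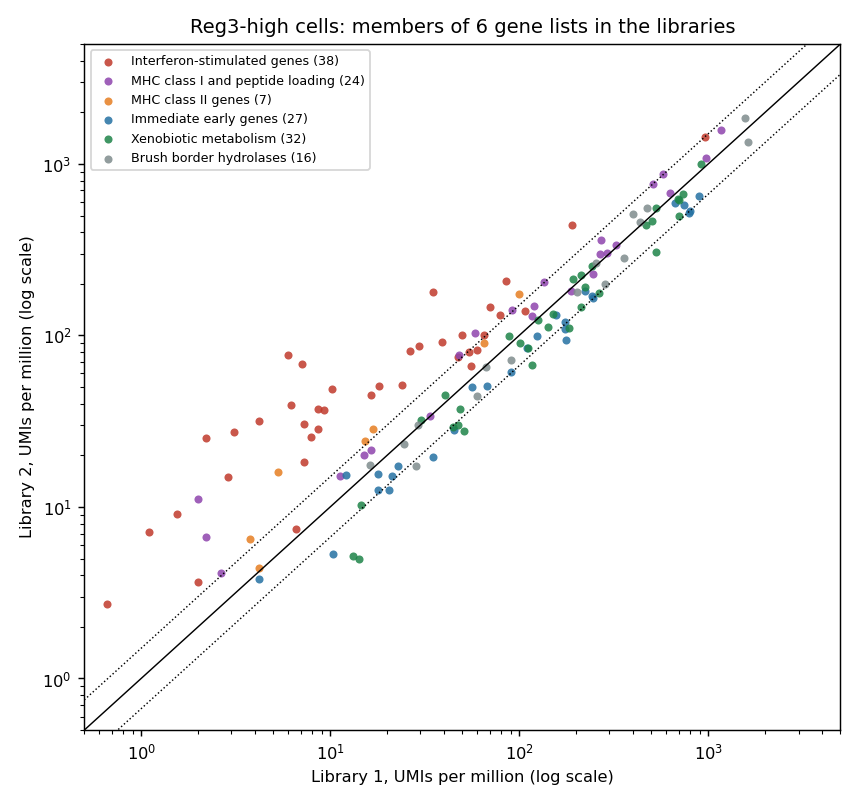
CPM in Reg3-high cells of library 1 (x axis) and library 2 (y axis), log scales, 1 point per gene of 6 lists, with the number of genes in the legend. The solid line marks equal levels and the dotted lines the 1.5-fold limits. All 38 interferon-stimulated genes lie over the solid line, and 26 of 27 immediate early genes lie under it.

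Other lists held few genes apart between the libraries, where 3.46% of all genes from 20 UMIs were higher and 1.55% lower. No gene was apart among 28 replication and mitosis genes, 24 ribosomal protein genes, 19 microvillus genes or 31 transcription factors of enterocytes and gut regions, and 1 was, lower, among 16 brush border hydrolases. Of 25 lipid absorption genes 2 were lower, besides the 8 of 32 detoxifying enzymes. At these shares a list of this size would hold few such genes, so its count does not show that its genes were alike. Sis was at 1616 and 1347 CPM, Anpep at 1560 and 1857 and Krt20 at 657 and 684. The summed brush border list had a median of 5279 and 5367 CPM per cell, and the replication list of 650 and 671.

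Among the 12 genes lowest in library 2, 2 need separate mention. Sst, the hormone somatostatin, was at 254 and 12.6 CPM, but 1091 of its 1148 UMIs in library 1 came from 1 cell. Without the cell with the most Sst in each library the ratio was 0.965 (0.678 to 1.38). That cell passed the limit on Chga and Chgb. Gm47283, a predicted gene annotated on chromosome Y, was at 20.1 and 1.82 CPM, a ratio of 0.0904 (0.0451 to 0.166). The Y-linked genes Ddx3y, at 55.5 and 51.1 CPM, and Eif2s3y, at 66.8 and 79.9, did not share that difference.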

How the data were processed

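Single-cell RNA counts of 2 libraries were used as deposited, UMIs per gene and barcode that the authors made with Cell Ranger 2.1.1 on mm10, per the submitters' processing notes. Chemistry and cell calling are not stated there. Values of 43 symbols with several features were summed, which left 31205 symbols, and 99.8% of the feature IDs are in GENCODE M21. Cells were chosen by the rule given above, doublets were not removed and no caller was run. UMIs were summed per library and set, given as CPM with exact Poisson intervals, and ratios have exact conditional intervals. Shares have Clopper-Pearson intervals. With 1 library of 5 pooled animals per group no test was made.

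Named were the 12 genes highest and 8 lowest against each set, and the 12 highest and lowest between the libraries, ranked by the interval bound nearest to 1 and without genes of the rule or mitochondrial genes. The 15 genes of highest CPM, Il18, Ccl20 and leading members of each list were added, and Ddx3y and Eif2s3y after their values were seen. Of 757 symbols in 33 lists 746 matched. Members and lists were chosen with earlier results of these data known. Alternatives changed the Reg3 threshold, the cell filters, the depth, the ratio and the UMI minimum. The arithmetic was tested on simulated data. Python 3.11.15, numpy 2.4.6, scipy 1.17.1, pandas 2.3.3 and matplotlib 3.10.9 were used.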

Additional observations from a re-analysis of the deposited data

Results flagged for a closer look

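In library 1, 96 barcodes, and in library 2, 125, met every other part of the rule but had over 25% of their UMIs in mitochondrial genes. They were shallower, with a median of 3819 and 4088 UMIs and of 37.9% and 35.2% mitochondrial UMIs. Pigr was at 9321 and 10787 CPM in them and Sis at 914 and 876. Lypd8 was at 1849 and 2715 CPM, Il18 at 120 and 92.2, and Ccl20 at 25.3 and 42.5. Their Reg3 level was fixed by the rule, and Lypd8, Il18, Sis and Ccl20 were all lower than in the Reg3-high cells of the same library. CPM include mitochondrial UMIs in the total, so the larger mitochondrial share of these barcodes by itself lowers the CPM of other genes. Pigr was nevertheless not lower, and how much of the other differences that share makes up was not tested. Lypd8 was near its level in barcodes under 500 genes, 1971 and 2909 CPM.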

How the results depend on the processing

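The share of kept cells that met the rule moved with its threshold. It was 13.1% and 18.4% in libraries 1 and 2 with at least 0.2% of UMIs in Reg3b and Reg3g, 4.26% and 6.14% with at least 0.8%, and 8.73% and 12.9% with cells thinned to 2000 UMIs. With a ratio of at least 2, genes higher and lower in Reg3-high cells numbered 537 and 341 against Apo-high cells, 23 and 62 against Alpi cells, and 38 and 50 against Gsdmc cells, and those higher and lower in library 2 numbered 62 and 5. At 0.8% the genes lower than in Alpi cells numbered 284. Between the libraries, thinning gave 68 and 32 genes, and a minimum of 20 UMIs gave 363 and 162. The median log2 ratios of 6 lists between the libraries kept their sign in every alternative tried, from 1.26 to 1.63 for interferon-stimulated genes, 0.68 to 0.77 for MHC class II, 0.32 to 0.47 for MHC class I, 0.41 to 0.53 for cholesterol synthesis, -0.53 to -0.40 for immediate early genes and -0.28 to -0.19 for xenobiotic metabolism. That of replication genes was 0.28 at 0.8% against -0.06 as reported. Among the named genes between the libraries, Sst (0.889), Fabp1 (0.711), Gsta1 (0.716) and Slc6a20a (0.766) were no longer apart at 0.8%, Sertad1 (0.649) and Slc6a20a (0.736) after thinning, and Sst without its top cells, an alternative chosen after seeing the data. Thinning also moved ratios that stayed apart by over 1.5 times, to 11.8 for Ly6a, 11.5 for Phf11d, 6.25 for Rtp4, 5.10 for Trim30a, 4.69 for Ifit1, 3.13 for Oas1a and 0.0579 for Gm47283, and the 0.8% threshold gave 14.3 for Ifit1. The causes were not tested. No paired analysis was possible because each group is 1 library. Counting intervals leave out the spread between animals, and pooling hides it. Depth limits genes such as Tlr2, Nod2, Csf1 and Lcn2, which had fewer than 30 UMIs a library.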

Other observations

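Several other lists held few genes apart between the libraries within Reg3-high cells. Of all genes from 20 UMIs, 3.46% were higher and 1.55% lower in library 2. No gene was apart among 13 BMP signalling and Id genes, 20 p53, senescence and cell cycle inhibitor genes, 12 iron and calcium genes, or 20 nuclear genes of the respiratory chain. At these shares lists of such size would hold few genes apart, so these counts do not show that their genes were alike. Of 12 clock genes Nfil3 was lower, at 58.6 and 35.5 CPM, and Tef higher, at 2.87 and 5.61. Ddit3, a factor of the unfolded protein response, was at 15.9 and 9.25 CPM, while the chaperone cofactor Sdf2l1 was at 19.7 and 31.5. Guca2a, the peptide guanylin that drives fluid secretion, was at 38.9 and 64.9 CPM, and Ceacam20, an adhesion molecule of the brush border, at 15.3 and 25.6.

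Stem cell genes were mixed between the libraries, with Lgr5 and Rnf43 low in these cells and Clca3b not. Lgr5, the marker of crypt base stem cells, was at 5.75 and 3.03 CPM, from 26 and 20 UMIs, Rnf43 at 7.96 and 12, and Clca3b at 469 and 746. The lipid carrier Cd36 was at 41.3 and 27.1 CPM, and the meprin subunit Mep1a at 28.3 and 17.4.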
